A study of Mus musculus with 16 samples.

Results

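Oxidative phosphorylation is carried out by 4 electron transport complexes and ATP synthase in the inner mitochondrial membrane. Complexes I and II pass electrons from NADH and succinate to coenzyme Q, complex III passes them on to cytochrome c, complex IV gives them to oxygen, and ATP synthase uses the proton gradient that results. Most subunits are encoded in the nucleus and imported, a small set is made inside the mitochondrion from its own genome, and complex II alone is wholly nuclear. In the colon, absorptive colonocytes and secretory goblet cells arise from shared crypt progenitors and take up different metabolic tasks, the former oxidizing short-chain fatty acids from the lumen.

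The genes described here were chosen by name. They are those of the mouse whose symbol begins with Nduf, Uqc, Cox4 to Cox8, Atp5, mt-Nd, mt-Co, mt-Cytb or mt-Atp, together with Sdha, Sdhb, Sdhc and Sdhd, without pseudogenes. There were 109 of them among the 45513 genes in the deposited counts, 96 in the nucleus and 13 in the mitochondrial genome. Besides subunits of complexes I to IV and ATP synthase, the prefixes bring in 11 assembly factors of complexes I and III and Atp5s, a factor that is not a subunit in the usual sense. The rule did not use any measured value. The 11 pseudogenes left out by it held counts equal to 0.635 to 0.858% of those of the nuclear genes, and reads shared between a gene and its pseudogene or paralog were counted at 1 place.

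RNA was sequenced from colon epithelium of 8 mice of C57BL/6 background, 8 to 16 weeks old. All mice were homozygous for Atoh1(WT)CreERT2, in which the native Atoh1 locus also makes a tamoxifen-inducible Cre recombinase, and heterozygous for the Rosa26tdTom reporter. All received tamoxifen, 1 mg per day on 3 days according to the labels and the study's methods on treatment (its methods on sequencing give 3 mg and 24 h), so that both populations come from treated animals. EpCAM+ cells, which are epithelial, were sorted from each mouse into tdTom+ cells, in which Cre had acted, and tdTom- cells, which hold all other epithelial types and any Atoh1-expressing cell that Cre did not reach. Each population thus had 8 libraries. The 16 libraries held 16482530 to 45791503 counts, the deepest being the tdTom- library of mouse 4, and no other exceeded 24218367. All levels below are CPM, read counts scaled to a common library size after TMM normalization, unless given as a share of counts or per kilobase (kb) of exon.

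The sorted populations were as labelled by their markers. Atoh1 had a mean of 132 ± 19.3 CPM in the tdTom+ and of 5.70 ± 1.67 CPM in the tdTom- libraries (SD, n = 8). All 8 goblet cell markers were higher in tdTom+ cells, with a summed level of 51182 to 106940 CPM against 2263 to 8807 CPM, and all 8 absorptive colonocyte markers were lower, at 1134 to 1827 CPM against 6823 to 13320 CPM. Enteroendocrine markers were lower in 6 of 6 genes (248 to 683 CPM against 1304 to 3811 CPM), tuft markers in 4 of 5 tested (50.2 to 101 CPM against 89.9 to 146 CPM), stem cell markers in 4 of 4 tested (133 to 177 CPM against 163 to 262 CPM) and proliferation markers in 6 of 7 (504 to 805 CPM against 610 to 1072 CPM). Immune markers were low in both populations, at 8.19 to 40.0 and 20.7 to 98.7 CPM summed, with 3 of 4 tested lower in tdTom+ cells, and stromal markers lower still, at 7.89 to 15.5 and 12.0 to 23.7 CPM, with 2 of 3 tested lower. These cell types differ between the groups in every result that follows, and their part in those results was not tested. In bulk libraries, a change in the mix of cell types and a change of RNA per cell cannot be told apart.

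The populations were compared with edgeR's quasi-likelihood test, with the mouse as a block, and a gene was called at a Benjamini-Hochberg adjusted p under 0.01 over the 15841 genes with enough counts. Of the 109 oxidative phosphorylation genes 103 were tested, 90 nuclear and 13 mitochondrial. Of these 103, 9 were higher in tdTom+ cells, 37 were lower and 57 were not called. Among all genes tested 28.4% were higher and 28.9% lower. The nuclear genes accounted for all 9 that were higher and for 32 that were lower, and their median log2 fold change was −0.13, against 0.00 over all genes tested. The mitochondrial genes had 5 lower and 0 higher by edgeR, with a median of −0.19, and also 0 higher by DESeq2. At an unadjusted p under 0.05, 1 was higher by edgeR. Most differences were small. With a log2 fold change of at least 0.5 in size as a second condition, 3 genes were higher (15.4% of all genes were) and 5 were lower (17.6% of all genes were). The higher ones were Ndufa4, Uqcc3 and Ndufaf7, and the lower ones Ndufaf6, Cox6b2, mt-Co1, Cox5a and Sdhb. The CPM of 4 genes in all 8 tdTom+ libraries lay above those in all 8 tdTom- libraries, which was so for 15.2% of all genes tested, and those of 10 genes lay below, against 15.3%. Among the members, the shares called higher and not overlapping in either direction were below those of all genes, and the share called lower was above.

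**Figure D1:**
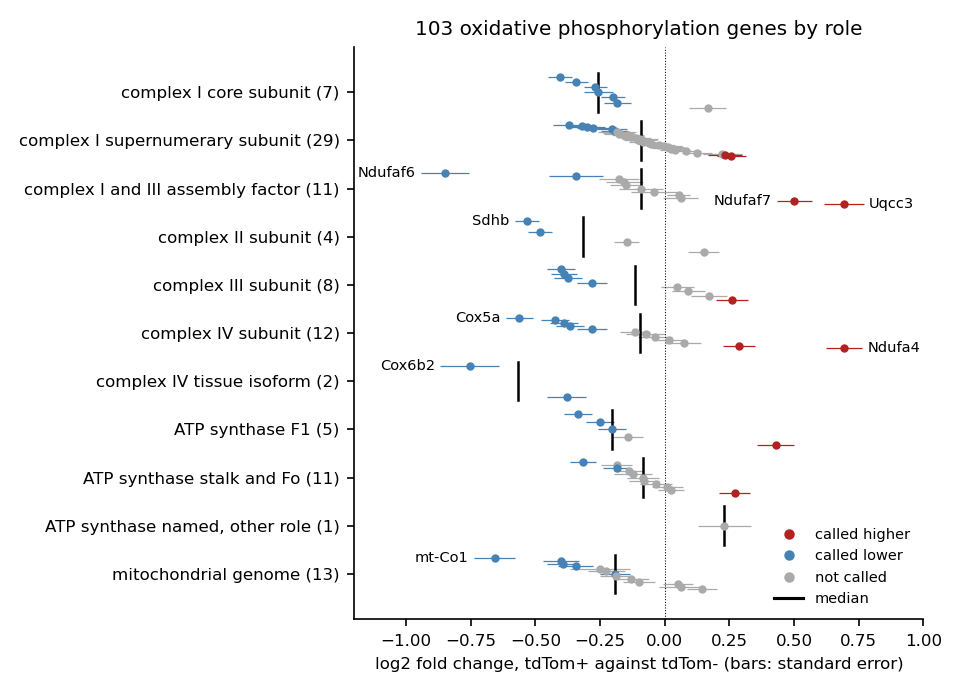
Log2 fold change of tdTom+ against tdTom- cells (horizontal axis, bars are standard errors) for the 103 genes tested, grouped by role with the number tested in parentheses, from edgeR with the mouse as a block. Red points were called higher, blue points lower and grey points were not called, and black lines are medians, which lie below 0 in every group but that of Atp5s.

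As a share of all counts, the 96 nuclear genes took up 1.60 to 1.92% (median 1.75%) of tdTom- libraries and 1.36 to 1.81% (median 1.51%) of tdTom+ libraries. The share was lower in the tdTom+ library in 7 of 8 mice, by 0.227 ± 0.153 percentage points on average (SD, n = 8). The 13 mitochondrial genes took up 3.53 to 9.34% (median 6.96%) of tdTom- and 2.19 to 6.77% (median 4.91%) of tdTom+ libraries. This share was lower in tdTom+ cells in 8 of 8 mice, by 1.85 ± 0.526 percentage points (SD, n = 8), although the ranges of the populations overlapped. The spread between mice was wide: mouse 4 had the lowest mitochondrial share in both populations, and each mouse's libraries tended to be high or low together. A share of counts is not corrected for the few very abundant secretory transcripts of tdTom+ cells.

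**Figure D2:**
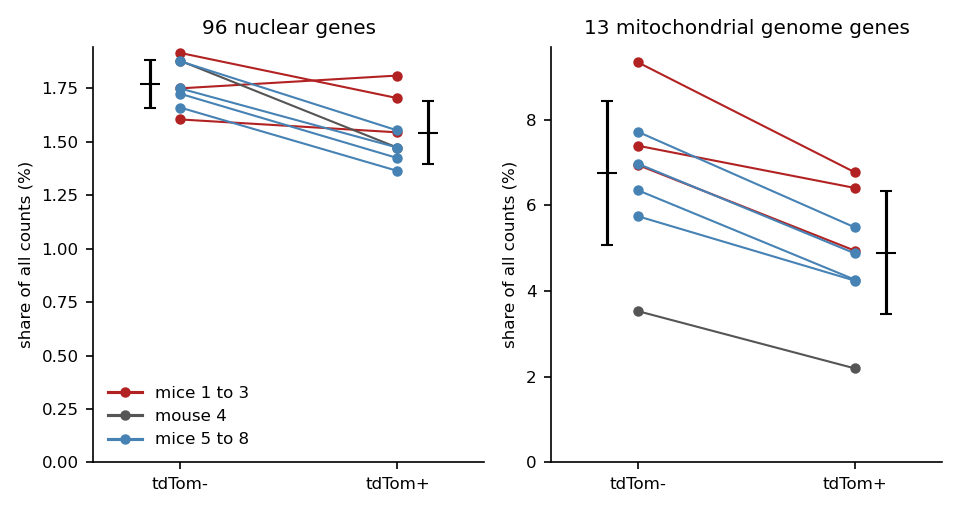
Share of all counts (%) held by the 96 nuclear genes (left) and the 13 mitochondrial genes (right) in the tdTom- and tdTom+ library of each of 8 mice, joined by lines and coloured by label series, with the mean and SD of each population in black. The nuclear share is lower in tdTom+ libraries in 7 mice and the mitochondrial share in all 8.

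The mouse numbers in the labels fall into 3 series, mice 1 to 3, mouse 4 and mice 5 to 8, which the labels do not describe further. The counts of nuclear genes called were not the same in each. In mice 1 to 3 alone 16 of 91 nuclear genes were higher and 5 lower, and their median log2 fold change was 0.04, while 20.7% of all genes were higher and 19.7% lower. In mice 5 to 8 alone 7 were higher and 47 lower, with a median of −0.21, while 24.4% of all genes were higher and 25.2% lower. The 91 genes and both counts of higher genes include Cox8b, which passed the filter there through its tdTom+ libraries and not in the fit of all mice. Mouse by mouse, the median difference of the nuclear genes was 0.09 in mouse 1, 0.11 in mouse 2 and −0.08 in mouse 3. It was −0.24 in mouse 4 and between −0.26 and −0.08 in mice 5 to 8. Of the 104 genes tested in both series, 40 had opposite signs in the separate fits, and all 40 were positive in mice 1 to 3. The share of all genes with opposite signs was not counted. No member passed the test of the difference between the series itself (edgeR, mice 5 to 8 against mice 1 to 3), nor did any of the 15851 genes in that test (0.0%). At an unadjusted p under 0.05, 49 of 104 members did, 48 of them with a more negative difference in mice 5 to 8, and 11.3% of all genes. Counts of Y-linked genes were found in mice 1 and 2 and were near 0 in the other 6, and the nuclear median was above 0 in those 2 mice alone. A term for the difference between these mice and the rest gave 0 of 103 members and 0 of 15841 genes called by edgeR (0.0%), with 54 members and 9.89% of all genes at an unadjusted p under 0.05. Sex and label series overlap in these animals and cannot be told apart.

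Transcript length moved with this split. The nuclear members tested were short, with a median length of 1135 bases for the longest annotated transcript, against 2922 bases over all genes tested. In mice 1 to 3 the shortest quintile of all genes tested, up to 1297 bases, had a median log2 fold change of 0.25, against 0.07 in mice 5 to 8, and the longest quintile had −0.10 and −0.01. When each library was corrected for GC content and transcript length, the median of the nuclear members was −0.07 in mice 1 to 3 and −0.21 in mice 5 to 8, and −0.16 over all mice. This correction, chosen after the values were seen, gave 8 members higher and 54 lower (28.8% and 29.7% of all genes), 44 of the lower ones nuclear and 10 mitochondrial. The median of mice 1 to 3 changed sign with it.

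**Figure D3:**
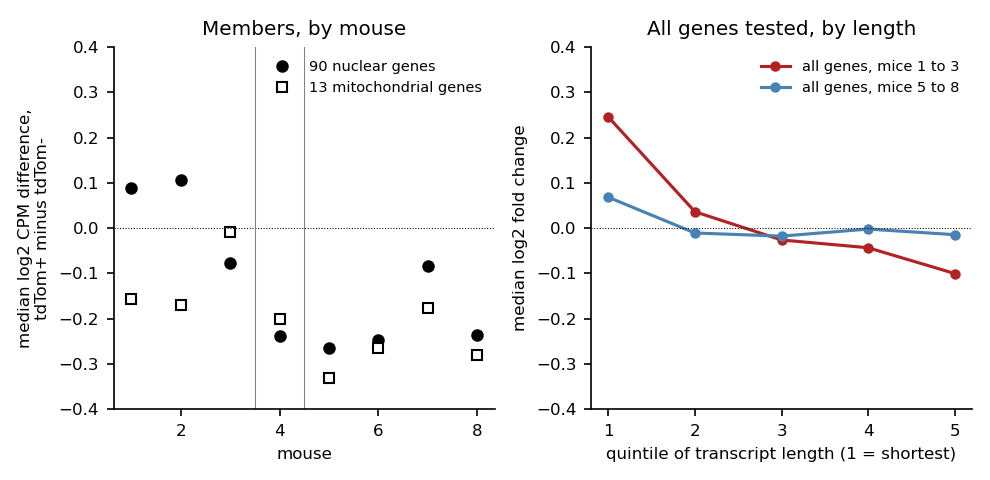
Left, median log2 CPM difference between tdTom+ and tdTom- libraries over 90 nuclear (filled circles) and 13 mitochondrial genes (open squares) in each mouse, with grey lines between the label series. Right, median log2 fold change of all genes tested in quintiles of transcript length for mice 1 to 3 (red) and mice 5 to 8 (blue), with the shortest genes at 0.25 and 0.07.

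Complex I, NADH dehydrogenase, is the largest of the complexes, and its nuclear subunits divide into a catalytic core and supernumerary subunits around it. The 7 nuclear core subunits had a median log2 fold change of −0.26. Ndufv1, which binds NADH and FMN, was at 136 to 166 CPM in tdTom+ and 177 to 211 CPM in tdTom- libraries. Those ranges did not overlap, and the log2 fold change was −0.34 (SE 0.05, adjusted p = 3.96e-06, edgeR). Ndufs1, Ndufv2 and Ndufs3 were lower by 0.27, 0.26 and 0.20 on the log2 scale, in all 8 mice, and Ndufs7 was lower by 0.18. Ndufv2 and Ndufs7 were not called without the block (adjusted p = 0.0144 and 0.0177, edgeR). Ndufs8, an iron-sulfur subunit, was at 83.9 to 135 CPM (median 102) in tdTom+ and 79.4 to 101 CPM (median 93.8) in tdTom- libraries and was not called (0.17, SE 0.07, adjusted p = 0.0459, edgeR). It was called higher in mice 1 to 3 alone (0.45, adjusted p = 4.37e-04, edgeR) and was at 0.01 in mice 5 to 8.

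The 29 supernumerary subunits of complex I had 2 genes higher, 6 lower and 21 not called, with a median of −0.09. These are 6.9% higher and 20.7% lower, both below the 28.4% and 28.9% of all genes. In mice 5 to 8 alone 15 were lower, against 25.2% of all genes. With the correction for GC content and length 12 were, against 29.7% of all genes. The difference from the core subunits was not tested. Ndufa6 was the lowest, at 90.6 to 152 CPM (median 101) in tdTom+ and 119 to 165 CPM (median 143) in tdTom- libraries. The ranges overlapped, but the level was lower in the tdTom+ library of every mouse (−0.37, SE 0.06, adjusted p = 3.34e-05, edgeR). Ndufa10, Ndufa5, Ndufa1, Ndufb8 and Ndufa8 were lower by 0.32, 0.30, 0.28, 0.20 and 0.19. Without the block Ndufa5, Ndufa1, Ndufb8 and Ndufa8 were not called (adjusted p = 0.016, 0.0846, 0.146 and 0.0479, edgeR). Ndufb8 was also not called with the correction for GC content and length (adjusted p = 0.0138, edgeR). Ndufb11, the highest, was at 99.3 to 150 CPM (median 113) against 88.0 to 114 CPM (median 94.8), higher in 7 of 8 mice (0.26, SE 0.06, adjusted p = 5.46e-04, edgeR). Ndufa7 was the other one called higher, at 0.23 (adjusted p = 0.00514, edgeR). It was not called without the block (adjusted p = 0.0881) or with the correction for GC content and length (0.11, adjusted p = 0.0579, both edgeR). It was at 0.48 in mice 1 to 3 and at 0.07 in mice 5 to 8, where it was not called (adjusted p = 0.348, edgeR).

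Complex II, succinate dehydrogenase, has 4 subunits. The catalytic pair that faces the matrix fell. The flavoprotein Sdha, on chromosome 13 from 74322254 to 74350280 of GRCm38, was at 323 to 380 CPM (median 339) in tdTom+ and 454 to 534 CPM (median 477) in tdTom- libraries. The iron-sulfur subunit Sdhb, on chromosome 4 from 140961203 to 140979193, was at 126 to 167 CPM (median 140) and 176 to 238 CPM (median 198). Neither gene's groups overlapped, and all 8 mice had the lower level in tdTom+ cells, with log2 fold changes of −0.48 (SE 0.05, adjusted p = 5.28e-08) for Sdha and −0.53 (SE 0.05, adjusted p = 1.86e-08, both edgeR) for Sdhb. The other subunits are membrane anchors. Sdhc was at 159 to 181 CPM (median 168) against 162 to 205 CPM (median 182), lower in 7 of 8 mice with a log2 fold change of −0.15 (SE 0.05, adjusted p = 0.0129, edgeR). It was called lower by DESeq2 (adjusted p = 0.00692) and in mice 5 to 8 alone (−0.21, adjusted p = 0.00303, edgeR). Sdhd was at 281 to 406 CPM (median 317) against 254 to 323 CPM (median 302), higher in 6 of 8 mice (0.15, SE 0.06, adjusted p = 0.0372, edgeR), and was called higher in mice 1 to 3 alone (0.36, adjusted p = 0.00562, edgeR). Neither anchor passed the threshold over all mice, and the difference between the anchors and the catalytic pair was not itself tested. Per kb of exon, the 4 subunits were at 124 ± 6.42, 91.3 ± 8.99, 57.1 ± 4.36 and 230 ± 19.3 CPM in tdTom- cells (SD, n = 8, in the order Sdha to Sdhd). By this measure Sdhd ranked first. The measure divides by the length of all annotated exons, 3883 bases for Sdha and 1287 for Sdhd. By CPM alone Sdha was above Sdhd, with means of 481 and 296 in that population.

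**Figure D4:**
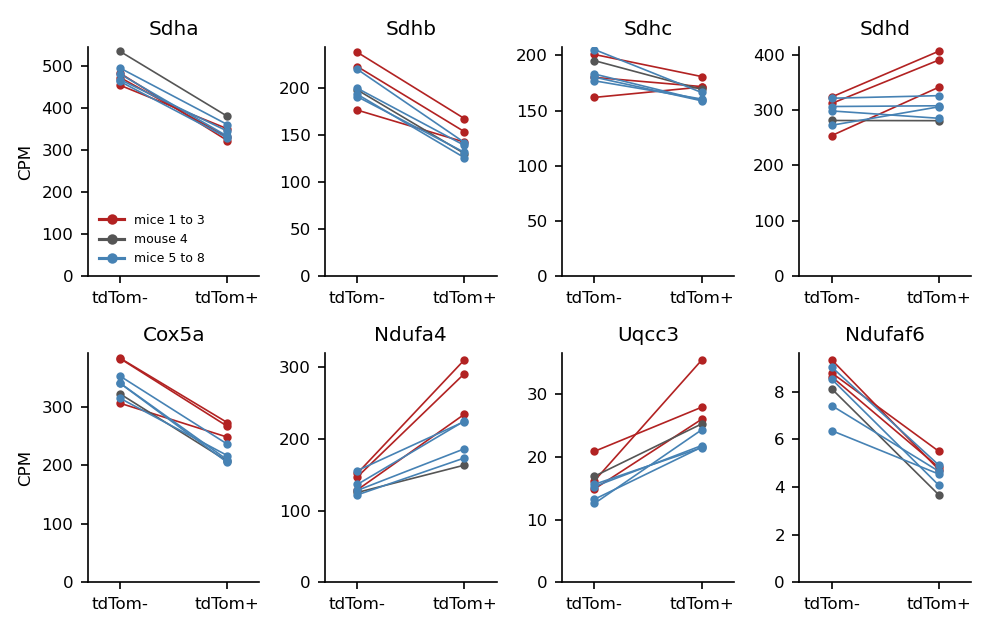
CPM of 8 named genes in the tdTom- and tdTom+ library of each mouse, joined by lines and coloured by label series; every axis starts at 0. Sdha, Sdhb, Cox5a and Ndufaf6 are lower and Ndufa4 and Uqcc3 higher in the tdTom+ library of all 8 mice, while the lines of Sdhc and Sdhd go both ways.

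Complex III, the cytochrome bc1 complex, had 4 of 8 nuclear subunits lower and 1 higher, against 28.9% and 28.4% of all genes. The lower ones include the Rieske iron-sulfur protein Uqcrfs1 (−0.37), both core proteins Uqcrc1 (−0.39) and Uqcrc2 (−0.28), and Uqcrb, which takes part in coenzyme Q binding. Uqcrb was at 86.6 to 135 CPM (median 106) in tdTom+ and 116 to 170 CPM (median 144) in tdTom- libraries, lower in all 8 mice (−0.40, SE 0.05, adjusted p = 4.97e-06, edgeR). The hinge protein Uqcrh, which holds cytochrome c1 and cytochrome c together, went the other way. It was at 241 to 479 CPM (median 307) against 223 to 336 CPM (median 253), with overlapping ranges and a higher level in the tdTom+ library of all 8 mice (0.26, SE 0.06, adjusted p = 0.00119, edgeR). It was not called when the block was left out (0.29, adjusted p = 0.0523, edgeR). The small subunits Uqcrq, Uqcr10 and Uqcr11 were not called, at 0.05, 0.17 and 0.09. In mice 1 to 3 alone Uqcr10 and Uqcr11 were called higher (0.43 and 0.33, adjusted p = 0.00182 and 0.00794, edgeR). They were at 0.02 and −0.03 in mice 5 to 8.

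Complex IV, cytochrome c oxidase, held the largest changes among the subunits in both directions. Of its 12 widely expressed nuclear subunits 5 were lower and 2 higher, against 28.9% and 28.4% of all genes. Cox5a, on chromosome 9 from 57521232 to 57532424, was at 205 to 273 CPM (median 227) in tdTom+ and 306 to 383 CPM (median 340) in tdTom- libraries. The groups did not overlap (−0.56, SE 0.05, adjusted p = 4.28e-08, edgeR). Cox5b, Cox4i1, Cox6a1 and Cox6c were lower by 0.42, 0.39, 0.37 and 0.28. Cox6c was not called without the block (adjusted p = 0.064, edgeR). Ndufa4, on chromosome 6 from 11900373 to 11907446, was first named as a complex I subunit and is now counted as a subunit of complex IV. It was at 164 to 310 CPM (median 225) in tdTom+ and 122 to 156 CPM (median 133) in tdTom- libraries, without overlap. Its log2 fold change was 0.69 (SE 0.07, adjusted p = 9.90e-08, edgeR), with 0.96 in mice 1 to 3 and 0.57 in mice 5 to 8, and it was 0.62 with the correction for GC content and length. Per kb of exon, Ndufa4 rose from 278 ± 26.4 to 460 ± 108 CPM while Cox5a fell from 497 ± 42.0 to 338 ± 39.7 CPM (SD, n = 8). By this measure the order of their means was opposite in the 2 populations, with overlapping values in tdTom+ cells. By CPM alone the mean of Cox5a was the larger in both, 343 against 137 in tdTom- and 233 against 226 in tdTom+ cells. Cox7a2l was at 183 to 319 CPM (median 205) against 162 to 205 CPM (median 182) and higher in all 8 mice (0.29, SE 0.06, adjusted p = 5.77e-04, edgeR). It was just short of the threshold when the block was left out (0.31, adjusted p = 0.0116, edgeR).

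The bases before the starts of Cox5a and Ndufa4 are shown because they had the lowest and the highest log2 fold change among the 12 widely expressed nuclear subunits of complex IV. They are the 250 bases upstream of the RefSeq start (GRCm38.p6), 5′ to 3′ on the strand of the gene, at chr9:57520982-57521231 on the plus strand and chr6:11907451-11907700 on the minus strand. Neither holds any of the 4 motifs searched further on, so no letter is in capitals.
Cox5a: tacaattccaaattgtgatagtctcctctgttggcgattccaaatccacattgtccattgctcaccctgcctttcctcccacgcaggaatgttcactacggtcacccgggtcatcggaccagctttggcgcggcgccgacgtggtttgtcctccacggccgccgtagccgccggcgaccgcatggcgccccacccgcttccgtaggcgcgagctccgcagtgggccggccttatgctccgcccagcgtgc
Ndufa4: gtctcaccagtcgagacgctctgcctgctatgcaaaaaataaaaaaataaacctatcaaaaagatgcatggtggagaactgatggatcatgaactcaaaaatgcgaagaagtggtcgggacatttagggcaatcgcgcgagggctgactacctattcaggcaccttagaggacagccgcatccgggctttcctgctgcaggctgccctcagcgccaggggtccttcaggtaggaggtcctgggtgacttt

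Several complex IV subunits have isoforms for particular tissues, and 8 such genes were in the files. Cox6b2, known from testis, was low and lower still in tdTom+ cells, at 1.74 to 2.82 CPM (median 2.39) against 3.06 to 5.05 CPM (median 3.83), from 37 to 260 counts a library. The groups did not overlap (−0.75, SE 0.11, adjusted p = 1.54e-05, edgeR). Its widely expressed partner Cox6b1 was at 241 to 436 CPM against 274 to 406 CPM and was not called (−0.12, adjusted p = 0.0855, edgeR). Cox7a1, known from heart and muscle, was at 14.8 to 37.4 CPM (median 21.3) against 20.1 to 41.5 CPM (median 29.5), lower in 7 of 8 mice (−0.38, SE 0.08, adjusted p = 3.10e-04, edgeR). It was not called without the block (−0.34, adjusted p = 0.124, edgeR), and Cox7a2 was not called with it (0.07, adjusted p = 0.344, edgeR). Cox8a, the common form, had medians of 415 and 395 CPM in tdTom+ and tdTom- libraries and was not called (0.01, SE 0.06, adjusted p = 0.834, edgeR), and its sign changed with the scaling.

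Cox8b, a heart and muscle form, did not pass the filter on low counts in the fit of all mice. It had 131 counts in the 8 tdTom+ libraries together and 4 in the 8 tdTom- libraries, at 0.0954 to 1.33 CPM (median 0.975) against 0 to 0.0956 CPM. The tdTom+ library of mouse 4 had 2 counts and the other tdTom+ libraries 13 to 26, while no tdTom- library had more than 2. Without a filter edgeR gave an adjusted p of 8.44e-20. That fit gave 6.28e-34 for Ndufa4 and 7.54e-21 for Cox5a, against 9.90e-08 and 4.28e-08 in the main fit (edgeR). The value for Cox8b is thus not comparable with the adjusted p of the main fit. In the separate fits of mice 1 to 3 and mice 5 to 8, which leave out mouse 4, Cox8b passed the filter only through its tdTom+ libraries. Its calls as higher in those fits were conditioned on that and add no support. Its highest CPM was thus far below the lowest of Cox8a, 349 CPM. Cox4i2, Cox6a2 and Ndufa4l2 had no more than 6 counts in any library and Cox7b2 and Cox8c had 0 counts in all, so no difference was detectable at this depth.

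In ATP synthase, the catalytic F1 part had 3 of 5 subunits lower and 1 higher, against 28.9% and 28.4% of all genes. Atp5d, the delta subunit, was at 267 to 351 CPM (median 313) against 345 to 441 CPM (median 388), lower in all 8 mice (−0.34, SE 0.05, adjusted p = 2.61e-05, edgeR). The beta and alpha subunits Atp5b and Atp5a1, which form the catalytic head, were lower by 0.25 and 0.20, Atp5b without overlap of the groups. The gamma subunit Atp5c1 was not called (−0.14, adjusted p = 0.0401, edgeR). Atp5e, the epsilon subunit, which sits beside delta on the central stalk, was at 139 to 378 CPM (median 205) against 115 to 203 CPM (median 147). It was higher in all 8 mice (0.43, SE 0.07, adjusted p = 4.78e-05, edgeR), though not called without the block (0.48, adjusted p = 0.0206, edgeR).

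Of the 11 subunits of the peripheral stalk and the membrane part, 2 were lower and 1 higher. These are 18.2% and 9.1%, both below the 28.9% and 28.4% of all genes. Atp5o, the stalk subunit OSCP, was at 203 to 308 CPM (median 234) against 266 to 346 CPM (median 293), lower in all 8 mice (−0.32, SE 0.05, adjusted p = 3.21e-05, edgeR), and Atp5h was the other (−0.18). Atp5h was not called without the block (adjusted p = 0.118, edgeR). The 3 genes for subunit c differ in their import sequences and encode the same mature protein. Atp5g2 was higher without overlap, at 109 to 153 CPM (median 118) against 90.7 to 109 CPM (median 102), with a log2 fold change of 0.27 (SE 0.06, adjusted p = 6.80e-04, edgeR). Atp5g1 was at 172 to 218 CPM against 178 to 204 CPM (0.02, adjusted p = 0.699, edgeR), and Atp5g3, the most abundant of the 3 by CPM per kb, at 378 to 523 CPM against 404 to 532 CPM (−0.14, adjusted p = 0.0411, edgeR). With the correction for GC content and length Atp5g3 was called lower (−0.22, adjusted p = 3.10e-04, edgeR). Atp5s, which is not a subunit, was low in both, at 7.43 to 9.27 CPM and 5.64 to 9.01 CPM, and was not called (0.23, adjusted p = 0.0569, edgeR).

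Assembly factors are not part of the finished complexes. Of 11 tested for complexes I and III, 2 were lower, 2 higher and 7 not called. These are 18.2% in each direction, against 28.9% of all genes lower and 28.4% higher. By at least 0.5, 1 was lower and 2 were higher, against 17.6% and 15.4% of all genes. Ndufaf6, needed early in complex I assembly, on chromosome 4 from 11051045 to 11076205, was at 3.67 to 5.50 CPM (median 4.70) in tdTom+ and 6.37 to 9.34 CPM (median 8.58) in tdTom- libraries. The groups were apart (−0.85, SE 0.09, adjusted p = 3.22e-07, edgeR), at 77 to 418 counts a library. Ndufaf7, a methyltransferase of complex I assembly, was at 28.2 to 36.0 CPM (median 31.0) against 19.3 to 26.5 CPM (median 21.2), higher without overlap (0.50, SE 0.07, adjusted p = 4.63e-06, edgeR). Uqcc3, a complex III assembly factor, on chromosome 19 from 8880016 to 8880933, was at 21.5 to 35.5 CPM (median 24.8) against 12.6 to 20.9 CPM (median 15.5). Its ranges did not overlap either (0.69, SE 0.08, adjusted p = 3.70e-07, edgeR). Ndufaf2, a chaperone of complex I, was the other lower one (−0.34, adjusted p = 0.00786, edgeR). It was not called without the block (adjusted p = 0.0242, edgeR) or with the correction for GC content and length (adjusted p = 0.0128, edgeR).

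The mitochondrial genome encodes 7 subunits of complex I, cytochrome b of complex III, 3 subunits of complex IV and 2 of ATP synthase. They are transcribed as long precursors from both strands of a circular genome, all but mt-Nd6 from the same strand. Per kb of exon in tdTom- cells, mt-Co1 led at 20746 ± 6471 CPM, followed by mt-Atp6 at 8515 ± 2278, mt-Co3 at 7236 ± 2120, mt-Co2 at 7004 ± 2046 and mt-Cytb at 6430 ± 1761 (SD, n = 8). The spread of mt-Atp6, mt-Co3, mt-Co2 and mt-Cytb was larger than the steps between them. The complex I genes followed, from mt-Nd1 at 4137 ± 1136 to mt-Nd6, alone on its strand, at 68.8 ± 15.3. mt-Atp8 overlaps mt-Atp6, and mt-Nd4l overlaps mt-Nd4, so that reads of the shared bases could be lost in counting.

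The complex IV genes of the mitochondrial genome were lower in tdTom+ cells, 3 of 3, against 28.9% of all genes tested. Those of complex I mostly were not called, with 1 lower of 7. In mice 5 to 8 alone 3 of these 7 were lower, against 25.2% of all genes. With the correction for GC content and length 4 were, against 29.7% of all genes. mt-Co1 was at 8230 to 30120 CPM (median 20047) in tdTom+ and 14811 to 49966 CPM (median 32158) in tdTom- libraries, and alone took up 1.66 to 4.66% of the counts of tdTom- libraries and 0.856 to 2.85% of those of tdTom+ libraries. The ranges overlapped widely, but the level was lower in the tdTom+ library of all 8 mice (−0.66, SE 0.08, adjusted p = 1.17e-06, edgeR). mt-Co2, at 1496 to 5494 CPM against 2182 to 6981 CPM, was lower by 0.39 (SE 0.06, adjusted p = 1.88e-05, edgeR). mt-Co3, at 1819 to 6353 CPM against 2649 to 8436 CPM, was lower by 0.34 (SE 0.07, adjusted p = 2.28e-04, edgeR). Both were lower in all 8 mice, as was mt-Atp6, at 1839 to 6009 CPM against 2772 to 8240 CPM (−0.40, SE 0.07, adjusted p = 6.40e-05, edgeR). mt-Nd5 was the complex I gene called, at 983 to 2487 CPM against 1083 to 3049 CPM (−0.19, SE 0.06, adjusted p = 0.00737, edgeR). The call of mt-Nd5 was lost in 6 of the 8 fits that each left out a mouse (adjusted p up to 0.031, edgeR).

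The remaining 8 mitochondrial genes did not pass the threshold. mt-Cytb came closest, at 2584 to 9206 CPM against 3574 to 10350 CPM (−0.23, adjusted p = 0.0102, edgeR), followed by mt-Nd4 (−0.19, adjusted p = 0.0120, edgeR). mt-Atp8, mt-Nd4l and mt-Nd1 were at −0.25, −0.13 and −0.10, and the largest of these adjusted p was 0.158 for mt-Nd1 (edgeR). The fitted values of mt-Nd2, mt-Nd6 and mt-Nd3 were above 0, at 0.05, 0.06 and 0.14, and mt-Nd3 was higher in 7 of 8 mice (adjusted p = 0.0383, edgeR). The signs of all 3 changed under some settings. The difference in fold change between the complex IV and complex I genes of this genome was not itself tested.

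**Figure D5:**
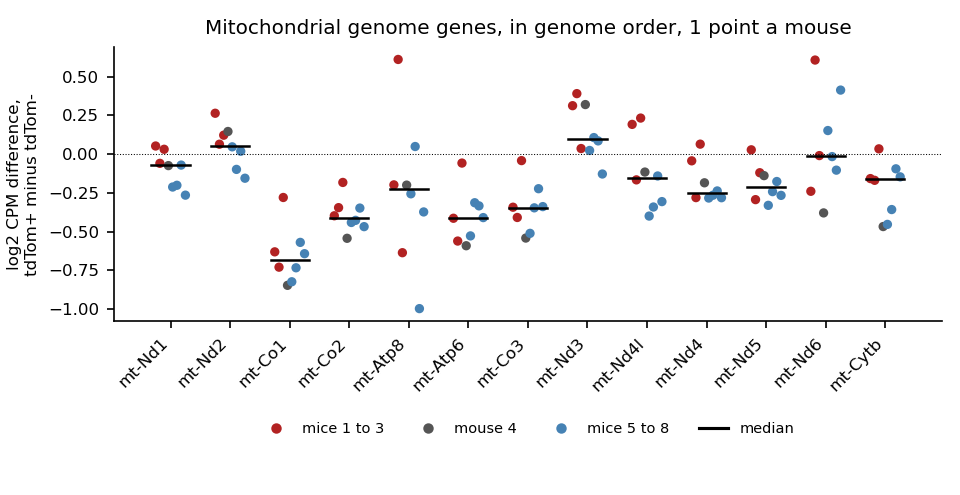
Log2 CPM difference between the tdTom+ and the tdTom- library of each mouse for the 13 mitochondrial genes in genome order, coloured by label series, with medians as black lines. All 8 points of mt-Co1, mt-Co2, mt-Co3 and mt-Atp6 lie below 0, while those of mt-Nd2, mt-Nd3 and mt-Nd6 lie on both sides.

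The mitochondrial calls rested on comparing libraries within a mouse. Without the mouse as a block, 0 mitochondrial genes were called by edgeR (1 at an unadjusted p under 0.05; mt-Co1 −0.63, adjusted p = 0.0238), and 5 nuclear genes were higher and 22 lower, against 25.5% of all genes higher and 25.5% lower. In mice 1 to 3 alone 0 of the 13 were called by edgeR (3 lower and 1 higher at an unadjusted p under 0.05) and their median was −0.08. In mice 5 to 8 alone 9 were lower, against 25.2% of all genes, with a median of −0.27. At an adjusted p of 0.05 over all mice, edgeR called 7 mitochondrial genes lower and 1 higher (33.8% and 33.7% of all genes), and DESeq2 called 7 lower and 0 higher at 0.01 (28.4% and 27.7% of all genes). With the correction for GC content and length 10 were lower, against 29.7% of all genes, with a median of −0.30.

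The calls held by every fit tried, including both label series, the fit without the block and each mouse left out, were 7: Sdha, Sdhb, Cox5a and Ndufaf6 as lower and Ndufa4, Uqcc3 and Ndufaf7 as higher. The share of all genes called in every fit, or in both label series, was not counted, so these counts cannot be set against it. In both label series separately those 7 were called in the same direction, and Ndufb11, Atp5e and Cox7a2l were called higher in both. So was Cox8b, which passed the filter there only through its tdTom+ libraries. Leaving out mouse 4, which had the lowest mitochondrial share, gave 13 nuclear genes higher and 25 lower with a median of −0.09, and 4 mitochondrial genes lower, while 29.6% of all genes were higher and 27.1% lower. The 13 include Cox8b.

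Genes that serve the same process outside the name rule were taken from lists. Their counts stand against 28.4% of all genes tested higher and 28.9% lower. Among 15 electron carriers and enzymes of coenzyme Q synthesis 9 were lower and 3 higher, with a median log2 fold change of −0.38. Cycs, cytochrome c itself, had a mean of 104 ± 10.6 CPM in the tdTom+ and of 159 ± 21.4 CPM in the tdTom- libraries (SD, n = 8; −0.60, SE 0.05, adjusted p = 2.03e-08, edgeR), and Cyc1, cytochrome c1 of complex III, was lower by 0.38. Pdss1, which makes the side chain of coenzyme Q, was lower by 0.99, in all 8 mice. The 34 tested assembly factors outside the rule had 12 higher, 6 lower and a median of 0.07, which was 0.16 in mice 1 to 3 and 0.03 in mice 5 to 8. Among them Tmem186, of complex I assembly, was higher (0.52) and Sco1, a copper chaperone of complex IV, lower (−0.65).

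Of 8 tested nuclear regulators of respiratory genes 5 were lower and 1 higher, with a median of −0.25. The coactivators Ppargc1b and Ppargc1a were lower by 0.86 and 0.43 and their partner Esrra by 0.54, while the related coactivator Pprc1 was higher by 0.44, in all 8 mice. The factors of mitochondrial transcription, replication and RNA had 2 of 16 higher and 4 lower, with a median of 0.02. Tfam, which packages and transcribes the mitochondrial genome, was at 59.9 ± 5.79 and 57.0 ± 3.25 CPM in tdTom+ and tdTom- cells (SD, n = 8; 0.07, adjusted p = 0.289, edgeR), and Lrpprc, which stabilizes mitochondrial messages, was lower by 0.46. The 76 tested mitochondrial ribosomal proteins had 17 higher and 21 lower with a median of 0.02. Neither share exceeded that of all genes tested, 28.4% higher and 28.9% lower. In mice 1 to 3 alone 20 were higher and 3 lower (median 0.16), against 20.7% and 19.7% of all genes. In mice 5 to 8 alone 13 were higher and 16 lower (median −0.04), against 24.4% and 25.2% of all genes. The 22 tested import proteins had 5 higher and 4 lower with a median of 0.02, which was 0.19 in mice 1 to 3 and −0.04 in mice 5 to 8. Of 10 abundant mitochondrial proteins of other function 8 were lower and 0 higher by edgeR (0 also at an unadjusted p under 0.05 and by DESeq2), with a median of −0.30, among them the channel Vdac3 (−1.02) and citrate synthase Cs (−0.78). Of the 7 lists, those of electron carriers, regulators and abundant proteins had medians below that of the nuclear members.

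Promoters of nuclear members were searched for 4 short motifs of factors known to act on respiratory genes, on both strands from 250 bases before to 50 after the RefSeq start. A promoter was found for 77 of the 96 nuclear members. The NRF1 motif GCGCATGCG was in 10 of them, against 489 (1.81%) of all 27025 promoters of that table. YY1 (AAGATGGC) was in 10 against 778 (2.88%), ETS (CCGGAAGT) in 5 against 1081 (4.0%) and ERR (TCAAGGTCA) in 2 against 110 (0.407%). The motifs do not overlap each other in sequence, except that NRF1 is nearly its own reverse complement. Of the 10 tested genes with the NRF1 motif 3 were lower and 1 higher, with a median log2 fold change of −0.13, and the 65 tested without it had a median of −0.11. Of the 10 with YY1, 2 were lower. Among all genes tested 28.9% were lower and 28.4% higher. A match in letters is no evidence that the factor binds there.

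The 5 matches upstream of the start in called genes are shown, since they occur in genes that were higher and in genes that were lower. Capitals mark the match, 5′ to 3′ on the strand of the gene (GRCm38.p6, all on the minus strand), with up to 20 bases on either side.
Atp5g2, higher, NRF1, chr15:102671060-102671109: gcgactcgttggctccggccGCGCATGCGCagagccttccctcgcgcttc
Cox6a1, lower, NRF1, chr5:115349091-115349140: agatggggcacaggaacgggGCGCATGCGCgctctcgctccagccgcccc
Ndufa8, lower, NRF1, chr2:36049339-36049367: cgcttgcgcgtcgctggagaCGCATGCGC
Uqcrh, higher, ETS, chr4:116075071-116075101: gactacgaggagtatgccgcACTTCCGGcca
Atp5h, lower, ETS, chr11:115419931-115419978: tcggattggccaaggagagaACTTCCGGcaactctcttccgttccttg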

How the data were processed

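RNA was measured by sequencing in 16 libraries, a tdTom+ and a tdTom- population of colon epithelium from each of 8 mice. The authors made stranded mRNA libraries, read 50 bases from 1 end, aligned with TopHat2 (2.1.1 in the submitters' processing notes) to GRCm38 and deposited raw counts per gene from featureCounts (1.5.0-p1 in the file headers, Subread 1.5.2 in the processing notes), counting primary alignments over exons on the reverse strand. The deposited counts are not normalized. Gene symbols were taken from GENCODE M21 for 44585 of 45513 genes.

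The counts were compared with edgeR 4.0.16 (R 4.3.3): filterByExpr, TMM, glmQLFit and glmQLFTest, with the mouse as a block and Benjamini-Hochberg adjustment over 15841 genes. Standard errors were derived from the fold change and the F statistic. Per-mouse differences used log2 CPM with a prior count of 2. Libraries of a mouse come from the same animal, and they deviated together from their group means (correlation across genes of at least 0.22 in every mouse, at most 0.17 between mice). No libraries of a group agreed within sampling noise. Total counts of 16482530 to 45791503 a library leave genes with a few counts imprecise. Groups and mice were taken from the sample labels.

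The alternatives were no block, DESeq2 1.42.0, limma-voom (limma 3.58.1), RLE factors, total counts, library sizes without mitochondrial genes, other filters, an adjusted p under 0.05, each mouse left out, and mice 1 to 3 or 5 to 8 only. The correction for GC content and length (natural splines with 5 degrees of freedom each, on the longest GENCODE M21 transcript) and the terms for label series and Y-linked counts were chosen after seeing the data. The edgeR fits with and without the block, DESeq2, limma-voom, the correction and the term for label series were tested on simulated counts of 8 mice. The genes named were all mitochondrial members, Sdha to Sdhd, isoform families, and the highest and lowest log2 fold change of each role list among genes with a mean of at least 100 counts. Other members and the list genes are named for their calls, and were chosen after their values were seen. The members and lists were chosen with earlier results of these data known. Promoters were taken from RefSeq (GRCm38.p6), and summaries were made with Python 3.11.15. The values of 1 member of these lists are not reported here.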

Additional observations from a re-analysis of the deposited data

Results flagged for a closer look

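Chance alone would flag about 1 in 20 groups by the gap of an extreme library to the nearest other, or 4.4 of the 88 examined, and 8 were flagged, all in mouse 4 and all mitochondrial. In log2 CPM, its tdTom+ library was the lowest of 8 for mt-Atp6 (10.8, others 11.9 to 12.6), mt-Co3 (10.8, others 11.8 to 12.6) and mt-Cytb (11.3, others 12.4 to 13.2). Its tdTom- library was the lowest for mt-Atp6 (11.4, others 12.3 to 13.01), mt-Atp8 (6.48, others 7.83 to 8.80), mt-Nd1 (10.8, others 11.8 to 12.4), mt-Nd3 (6.34, others 7.40 to 8.06) and mt-Nd6 (4.28, others 4.94 to 5.51). Genes of 1 genome that are transcribed together are not independent of each other. Mouse 4 is alone in its label series, and its tdTom- library is the deepest.

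The median log2 difference of the nuclear members was above 0 in both mice with Y-linked counts (0.10 as their median) and below 0 in the 6 others (−0.26 to −0.08). This difference between the medians was not tested, and the test gene by gene called 0 of 103 members (edgeR, 54 at an unadjusted p under 0.05).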

How the results depend on the processing

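Without the mouse as a replicate block, 5 members were higher and 22 lower (25.5% of all genes in each direction), and the 27 calls were among the 46 of the blocked fit. An adjusted p under 0.05 gave 14 higher (33.7% of all genes). In mice 1 to 3 only, 16 members were higher and 5 lower, 6 and 1 by at least 0.5, with medians of 0.043 (nuclear) and −0.083 (mitochondrial). Both counts of higher members include Cox8b, and 20.7% of all genes were higher and 19.7% lower there. In mice 5 to 8 only, 56 were lower (25.2% of all genes), 8 by at least 0.5. With the replicate block and the GC content and length correction, 9 were lower by at least 0.5 and the mitochondrial median was −0.30. That correction gave 16 lower in mice 1 to 3, with 5 higher and 10 lower by at least 0.5, and 61 lower in mice 5 to 8, 11 by at least 0.5, with a mitochondrial median of −0.30. Of the 15841 genes tested over all mice, 3015 were lower with it in mice 1 to 3 and 3978 in mice 5 to 8. For changes of at least 0.5 the share of all genes is given only for the main fit, 15.4% higher and 17.6% lower. The other 128 values of counts, medians and shares stayed within 1.5 times the count or 1 SD between mice. Leaving out each mouse gave 8 to 13 higher, 29 to 40 lower, and medians of −0.15 to −0.09 (nuclear) and −0.22 to −0.17 (mitochondrial).

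Of 924 values of named genes, 24 changed sign, none of them in a called gene. Atp5g1 was −0.026 with total counts only, −0.059 in mice 5 to 8 and −0.058 there with the GC and length correction. Cox8a was −0.035 with total counts only, −0.094 in mice 5 to 8, −0.070 with the correction, and −0.088 and −0.10 with it in mice 1 to 3 and mice 5 to 8, and ran from −0.030 to 0.048 with a mouse left out. Cox7a2 was −0.055 in mice 5 to 8, −0.057 with the correction and −0.12 with it in mice 5 to 8. In mice 1 to 3, Atp5g3, Cox6b1, mt-Nd1 and mt-Nd4l were 0.033, 0.043, 0.011 and 0.089. mt-Nd2 was −0.046 in mice 5 to 8, and −0.049 and −0.0033 with the correction in mice 5 to 8 and mice 1 to 3. mt-Nd3 was −0.058 and −0.037 with the correction in mice 1 to 3 and mice 5 to 8. mt-Nd6 was −0.034 with the correction, −0.14 with it in mice 1 to 3, and ran from −0.0066 to 0.14 with a mouse left out. The cause was not tested. Genes with a few counts a library, such as Cox8b, cannot be compared closely at this depth.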

Other observations

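The rRNA genes of the mitochondrial genome are outside the name rule, and they were looked at after the values of its protein genes were seen. mt-Rnr2 was at 205 to 1073 CPM in tdTom+ and 1367 to 4851 CPM in tdTom- libraries, and mt-Rnr1 at 113 to 523 CPM and 499.8 to 1857 CPM. The ranges of mt-Rnr1 overlapped and those of mt-Rnr2 did not. Both were lower in the tdTom+ library of all 8 mice, with log2 fold changes of −2.70 (SE 0.08, adjusted p = 1.24e-14) and −2.11 (SE 0.06, adjusted p = 8.95e-15, both edgeR). Their share of counts was 0.0331 to 0.151% of counts in tdTom+ and 0.210 to 0.626% in tdTom- libraries. The libraries were made with an mRNA kit, and its part in these values was not tested.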
